A study of Homo sapiens with 6 samples.

Results

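VPS33B, its partner VIPAS39 and the 6 subunits of the HOPS tethering complex were described at the level of genes and of transcripts. They make up 8 of the 58825 genes and 76 of the 208460 transcripts in the deposited tables, and were found there by gene name. VPS33B was chosen by its lower FPKM in the G libraries compared here, which earlier results of these data had called, and the other members were chosen as its paralogue and its known partners. The difference of VPS33B between the groups is therefore a description and not an independent finding. An overlapping annotated gene, AC068831, was followed beside it.

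RNA was sequenced from PC9, an established human lung adenocarcinoma line with an activating EGFR mutation. The G libraries (3) came from cells overexpressing the rs3742076_G form of FOXM1, a transcription factor that drives mitotic genes, and the A libraries (3) from cells overexpressing the rs3742076_A form. Cells of all 6 libraries carried a FOXM1 overexpression and had received 100 nM gefitinib, an EGFR inhibitor, for 24 h, and no library without either was analysed here. The sources used here give neither the promoter behind FOXM1 nor whether the cells of a group are 1 clone. Nothing in the labels tells whether replicates are separate cultures, so a p-value here covers the spread of these libraries alone, and that spread may be technical.

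Values are FPKM, which count fragments per kilobase of a transcript and scale them to the depth of the library. Between 12700 and 12858 genes reached 1 FPKM in a G library and between 12451 and 12548 in an A library. The number of reads behind each value is unknown, because whole reads could not be recovered from the FPKM, and the number of libraries limits the precision. All 6 epithelial markers (EPCAM, KRT7, KRT8, KRT18, KRT19 and EGFR) were at or above 1 FPKM in every library, with a summed level of 2652 to 2886 FPKM in G libraries and 2820 to 3365 FPKM in A libraries. The sum is mostly keratin, and single markers went different ways without overlap. EGFR, the target of gefitinib, was at 83.6 to 86.2 FPKM in G libraries and 61.8 to 73.5 FPKM in A libraries, while KRT7, KRT8 and KRT18 were lower in every G library than in any A library. The 3 leukocyte markers summed to 0.718 to 0.960 FPKM in G libraries and 0.885 to 1.17 FPKM in A libraries, nearly all of it CD14, with PTPRC and CD3E at or near 0. The 2 endothelial markers summed to 0.369 to 0.595 FPKM in G libraries and 0.192 to 0.446 FPKM in A libraries. Of the 3 fibroblast markers, COL1A1 made up most of the sum, which was 1.89 to 2.39 FPKM in G libraries and 1.71 to 1.96 FPKM in A libraries. FOXM1 itself was at 14.6, 14.3 and 14.0 FPKM in G libraries and at 25.5, 10.5 and 10.1 FPKM in A libraries, so that A replicate 1 stood apart.

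Tethers hold a vesicle to its target membrane before SNARE proteins fuse the membranes. HOPS joins late endosomes and autophagosomes to lysosomes, and the related CORVET complex, which shares its core, works on early endosomes. VPS33A is the Sec1/Munc18 protein of these complexes and acts on SNARE assembly. VPS33B is its paralogue, and it pairs with VIPAS39 in a separate complex. Loss of VPS33B or VIPAS39 causes the ARC syndrome of arthrogryposis, renal dysfunction and cholestasis. Endosomes and lysosomes are also the route by which cells take in and degrade EGFR, the target of gefitinib.

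VPS33B and the overlapping gene AC068831 share most of their 5′ exons and part at an exon join near the 3′ end of VPS33B. VPS33B (ENSG00000184056) lies on the minus strand of chromosome 15, positions 90998416 to 91022603 on GRCh38. AC068831 (ENSG00000284946), the only one of 7 genes of that name to overlap VPS33B, lies on the same strand at 90966190 to 91022566. It reads through VPS33B into PRC1, the neighbouring gene for a spindle midzone protein. Its main transcript ENST00000643536 has 35 exons and 6683 bases, and the annotation gives it as a target of nonsense-mediated decay, the pathway that degrades transcripts with an early stop codon. The coding transcript of VPS33B, ENST00000333371, has 23 exons and 2767 bases. The pair share 21 identical exons and 2091 bases, which is 75.6% of the VPS33B transcript.

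The 2 transcripts part after exon 22 of VPS33B, which ends at position 90999677 on the minus strand. ENST00000333371 goes on into its own last exon of 639 bases (90998416 to 90999054). ENST00000643536 instead joins a PRC1 exon (90984693 to 90984825) across an intron of 14851 bases. Of its 34 exon joins, 21 are also in the coding VPS33B transcript, and this join is in no VPS33B and no PRC1 transcript. The 52 bases around the join are shown because they are where the annotation separates the 2 RNAs. They are from GENCODE release 29 transcripts, 5′ to 3′, with the last 26 bases of exon 22 (90999677 to 90999702) in lower case and the first 26 bases after the join in capitals (90999029 to 90999054 in ENST00000333371, 90984800 to 90984825 in ENST00000643536).
ENST00000333371: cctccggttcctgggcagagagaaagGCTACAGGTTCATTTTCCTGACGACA
ENST00000643536: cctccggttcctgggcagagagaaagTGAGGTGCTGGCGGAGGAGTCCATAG
In ENST00000643536 the last 3 capitals are the annotated stop codon (90984800 to 90984802), so its reading frame ends 26 bases after the join. The VPS33B stop codon lies at 90998975 to 90998977, in the last exon that the readthrough lacks. Both transcripts have the same annotated start codon, at 91022247 to 91022249. Of the other bases of the readthrough transcript, 2716 are also in PRC1 exons and 1876 are in exons of neither gene.

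**Figure D1:**
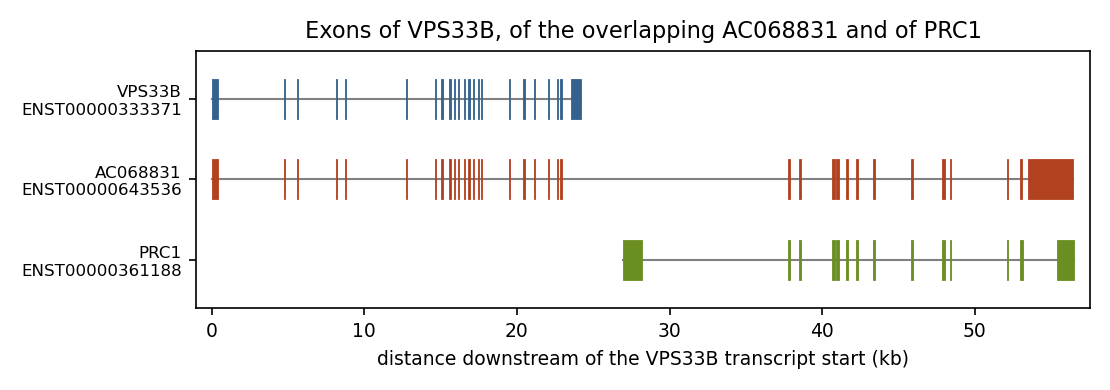
Exons (boxes) of the VPS33B coding transcript, the AC068831 readthrough transcript and a PRC1 transcript, to scale, against the distance in kilobases downstream of the VPS33B transcript start. The 21 identical exons line up on the left, and the readthrough lacks the last VPS33B exon and runs on into the PRC1 exons after an intron of 14851 bases.

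VPS33B was lower in every G library than in any A library. Its gene level was 2.11, 1.57 and 2.00 FPKM in G libraries, against 4.41, 4.79 and 4.28 FPKM in A libraries. The groups did not overlap, and no library stood apart from its own group. The mean was 1.9 ± 0.286 FPKM in G libraries and 4.49 ± 0.266 FPKM in A libraries (SD, n = 3 each), a ratio of 0.422. The log2 change, G minus A, was -0.93 (SE 0.0958) on the log2(FPKM + 1) scale, where the change of a low gene comes out too small. In limma's fit over 12787 genes the Benjamini-Hochberg adjusted p was 0.046, and this call belongs to the choice of the gene. It was 0.0818 to 0.206 with 1 library left out, so the call was lost without any 1 of the 6, and the log2 change was -0.94 without A replicate 1, the library with high FOXM1. The authors' deposited table gives VPS33B a fold ratio of 0.422, a log2 change of -1.25, a p-value of 2.03e-07 and a q-value of 0.000237. In bulk RNA, fewer cells expressing a gene and less RNA per cell cannot be told apart.

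AC068831 stood the other way round. It was at 4.99, 5.43 and 5.33 FPKM in G libraries, against 3.50, 3.10 and 3.73 FPKM in A libraries, and the groups did not overlap. The mean was 5.25 ± 0.233 FPKM in G libraries and 3.44 ± 0.318 FPKM in A libraries (SD, n = 3 each), a log2 change of 0.50 (SE 0.0779) that missed the threshold with an adjusted p of 0.146 in limma's fit. The authors' deposited table gives it a log2 change of 0.61 and a q-value of 0.36.

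The gene FPKM is computed from the transcript FPKM, so the transcript values restate the gene values and are no second measurement. ENST00000333371 held 72.1% to 85.5% of the length-weighted value of VPS33B in G libraries and 93.6% to 98.0% in A libraries. It was at 2.62, 1.64 and 2.31 FPKM in G libraries, against 5.99, 6.62 and 6.08 FPKM in A libraries, a ratio of means of 0.352. ENST00000643536 was at 5.34, 5.76 and 5.71 FPKM in G libraries, against 3.74, 3.26 and 3.99 FPKM in A libraries, a ratio of 1.53. Neither pair of ranges overlapped. For these 2 transcripts the authors' deposited table gives q-values of 1. Of the FPKM of the pair, the readthrough made up 67.1%, 77.8% and 71.1% in G libraries, against 38.4%, 33.0% and 39.6% in A libraries. The readthrough was thus the more abundant of the pair in all 3 G libraries and the less abundant in all 3 A libraries. The other annotated AC068831 transcript, ENST00000647331, reached at most 0.101 FPKM.

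The other 7 VPS33B transcripts were low or listed without an estimate. ENST00000557470, ENST00000535906, ENST00000574755 and ENST00000554264 had no estimate in any library. The retained-intron transcript ENST00000554660 was at 0.295, 1.03 and 0.737 FPKM in G libraries and 0.652, 0.211 and 0.235 FPKM in A libraries. The retained-intron transcript ENST00000556096 was at 0.457, 0.269 and 0.408 FPKM in G libraries and 0.256, 0.393 and 0.0574 FPKM in A libraries. The ranges overlapped for both. The noncoding transcript ENST00000557358 was at 0.225, 0.366 and 0.256 FPKM in G libraries and was listed at 0 in all A libraries.

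Because most VPS33B exons also belong to AC068831, the level over the shared exons was computed from the transcript FPKM of both genes, each weighted by the part of those exons it covers. It was 8.33, 7.88 and 8.43 FPKM in G libraries, against 9.97, 10.2 and 10.1 FPKM in A libraries. The groups did not overlap, and the ratio of means was 0.812, nearer to 1 than the 0.422 of the gene value. AC068831 accounted for 68.6% ± 5.07 of this level in G libraries and 36.5% ± 3.42 in A libraries (SD, n = 3 each). Over the PRC1 exons of the readthrough the level was 31.4 ± 3.10 FPKM in G libraries and 29 ± 0.282 FPKM in A libraries, of which AC068831 made up 17.9% ± 1.08 in G libraries and 12.7% ± 1.28 in A libraries. PRC1 itself was at 15.5, 18.3 and 19.4 FPKM in G libraries and 17, 18.1 and 16.1 FPKM in A libraries, with overlapping groups. When VPS33B and AC068831 were summed by length into 1 value, the log2 change was 0.07 with an adjusted p of 0.538 in limma's fit. That sum weights the readthrough by all its 6683 bases, of which 2091 are shared with the VPS33B coding transcript. It therefore leans towards AC068831 and is no measure of VPS33B output. Over the shared exons alone the log2 change was -0.27 (SE 0.0545, adjusted p = 0.161 in limma's fit).

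These levels rest on how StringTie divided reads over shared exons between VPS33B and AC068831. The level of AC068831 also rests on the division with PRC1, whose exons hold 2716 of the 6683 bases of the readthrough. The reads that cross the join were not analysed here, so whether the RNAs or their division differed between the groups was not tested.

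**Figure D2:**
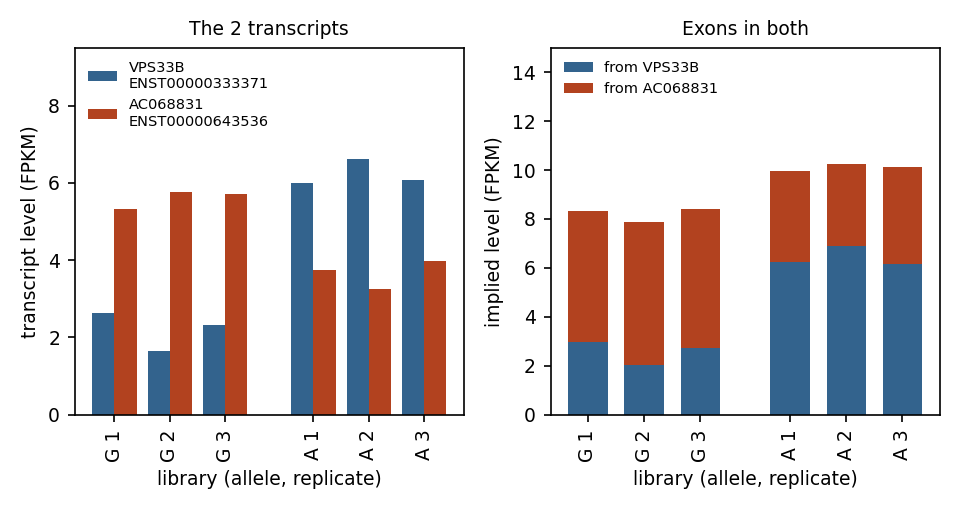
Level in FPKM (vertical axes) in each library, with G libraries left of A libraries, of the 2 transcripts (left) and over the exons they share, stacked by the gene they come from (right). The coding transcript averages 2.19 FPKM in G libraries and 6.23 in A libraries, the readthrough 5.60 in G libraries and 3.66 in A libraries, and the shared exons 8.21 in G libraries and 10.1 in A libraries.

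VIPAS39, which binds VPS33B, did not share its lower level. It was at 12.3, 10.8 and 12.2 FPKM in G libraries, against 7.5, 10.2 and 10.8 FPKM in A libraries. The groups did not overlap, but the lowest G library and the highest A library were both at 10.8 FPKM after rounding. The log2 change was 0.30 (SE 0.134, adjusted p = 0.32 in limma's fit), and 0.15 without A replicate 1. Within a library, the ratio of VPS33B to VIPAS39 was 0.160 ± 0.0135 in G libraries and 0.485 ± 0.0967 in A libraries (SD, n = 3 each). VIPAS39 lies on chromosome 14 (77426675 to 77457952, minus strand). Its 5′ end overlaps by 83 bases the gene AHSA1 on the opposite strand. AHSA1 was at 31.4, 28.3 and 31.4 FPKM in G libraries and at 36.7, 36.0 and 34.5 FPKM in A libraries. The AHSA1 groups did not overlap either. Of the VIPAS39 transcripts, ENST00000556909 alone reaches into AHSA1. It was at 0.438 FPKM in A replicate 1, which was 0.854% of the length-weighted value of VIPAS39, and was listed at 0 in the other libraries. The part of the shared bases in the VIPAS39 value was not tested further.

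The FPKM of VIPAS39 was split unevenly between its transcripts. ENST00000557658 was at 15.1, 15.1 and 16.7 FPKM in G libraries, against 6.39, 14.0 and 3.72 FPKM in A libraries, and the groups did not overlap. ENST00000343765 was listed at 0 in all G libraries, and was at 1.77 FPKM, listed at 0 and at 8.94 FPKM in A libraries. In A replicate 3 that transcript made up 61.9% of the length-weighted value of the gene. A replicates 1 and 3 thus differed from the other libraries in transcript makeup, while A replicate 2 was close to the G libraries.

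VPS33A, the paralogue of VPS33B, overlapped between the groups. It was at 3.38, 3.09 and 3.43 FPKM in G libraries and at 3.66, 3.34 and 3.99 FPKM in A libraries, a log2 change of -0.11 (SE 0.080, adjusted p = 0.493 in limma's fit). Its transcript ENST00000267199 was at 5.37, 4.78 and 5.15 FPKM in G libraries and at 5.64, 4.08 and 6.28 FPKM in A libraries. By gene FPKM, VPS33B stood below VPS33A in every G library and above it in every A library. The ratio of gene FPKM was 0.573 ± 0.0595 in G libraries and 1.24 ± 0.184 in A libraries (SD, n = 3 each). Between the main coding transcripts the order was the reverse in A replicate 3, with ENST00000333371 at 6.08 FPKM and ENST00000267199 at 6.28 FPKM. VPS33A lies on chromosome 12 (122229564 to 122266521, minus strand). It overlaps AC048338, which was listed at 0 in all libraries.

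The other core subunits, shared by HOPS and CORVET, also overlapped between the groups. VPS11, a scaffold subunit with a RING domain (chromosome 11, 119067692 to 119081978, plus strand), was at 5.54, 5.67 and 5.57 FPKM in G libraries and at 6.26, 6.0 and 5.26 FPKM in A libraries. VPS16, which holds VPS33A in the complex (chromosome 20, 2840703 to 2866732, plus strand), was at 16.3, 17 and 16.1 FPKM in G libraries and at 18.2, 16.7 and 15.8 FPKM in A libraries. VPS18, another scaffold subunit with a RING domain (chromosome 15, 40894450 to 40903975, plus strand), was at 4.01, 4.94 and 4.49 FPKM in G libraries and at 5.26, 4.64 and 4.91 FPKM in A libraries. Their log2 changes in limma's fit were -0.05 for VPS11 (SE 0.0744, adjusted p = 0.744), -0.03 for VPS16 (SE 0.0666, adjusted p = 0.827) and -0.12 for VPS18 (SE 0.0861, adjusted p = 0.512).

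VPS39 and VPS41 are found in HOPS and not in CORVET, and link it to the membranes it joins. VPS39 (chromosome 15, 42158701 to 42208316, minus strand) was at 7.59, 7.04 and 4.47 FPKM in G libraries and at 7.36, 6.77 and 6.47 FPKM in A libraries. VPS41 (chromosome 7, 38722974 to 38932394, minus strand) was at 8.62, 8.11 and 8.66 FPKM in G libraries and at 8.61, 7.75 and 7.81 FPKM in A libraries. G replicate 3 was low for VPS39, and the groups overlapped for both genes. The log2 change was -0.12 for VPS39 (SE 0.174, adjusted p = 0.742) and 0.06 for VPS41 (SE 0.065, adjusted p = 0.636), both in limma's fit. MIR627, which lies within VPS39, was listed at 0 in all libraries. The 6 HOPS subunits summed to 45.5, 45.8 and 42.7 FPKM in G libraries and to 49.3, 45.2 and 44.2 FPKM in A libraries.

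All 8 members passed the filter on low values. VPS33B was the only 1 of the 8 past the threshold, against 0.109% of all tested genes (14 of 12787), with 0.0782% called lower and 0.0313% called higher in G libraries. Groups did not overlap for VPS33B in the lower direction, against 9.57% of all tested genes, and for VIPAS39 in the higher direction, against 15.4%. The members were chosen with this comparison known, so nothing is read from these counts.

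**Figure D3:**
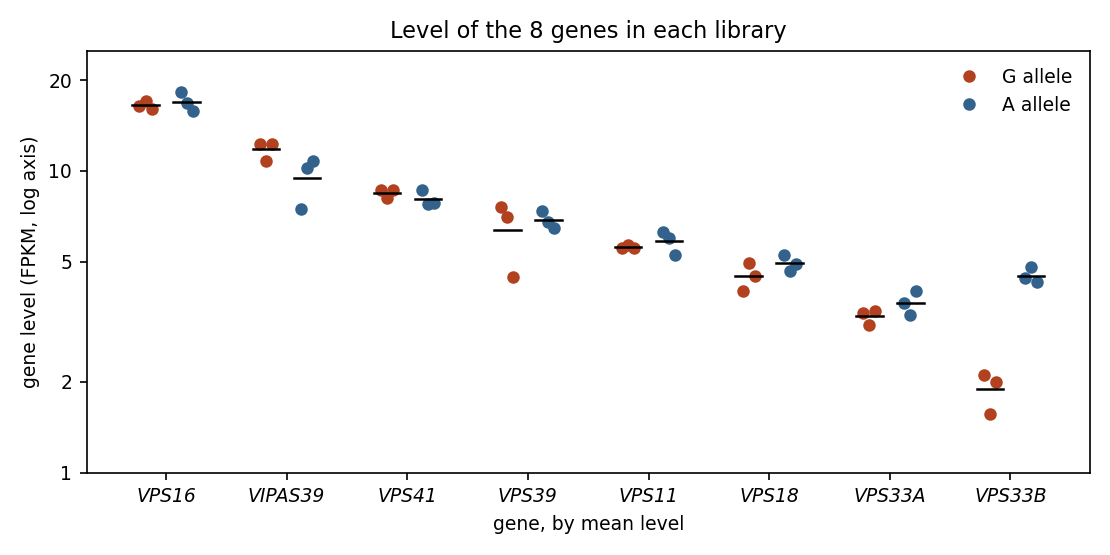
Gene FPKM (vertical log axis) of the 8 members in each library, ordered by mean level, with G libraries left of A libraries. Points are libraries and lines are group means (n = 3). VPS33B averages 1.9 FPKM in G libraries and 4.49 in A libraries, and the ranges of the 6 HOPS subunits overlap between the groups.

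Gene FPKM averaged over the 6 libraries ran from VPS16 at 16.7 through VIPAS39 at 10.7, VPS41 at 8.26 and VPS39 at 6.62. VPS11 followed at 5.72, then VPS18 at 4.71, VPS33A at 3.48 and VPS33B at 3.20 FPKM. The length that gene FPKM implies exceeded the longest transcript unequally, at 7493 against 4586 bases for VPS33A and 4029 against 3875 for VPS18. By coding transcript, VPS33A (ENST00000267199) averaged 5.10 FPKM in G libraries and 5.33 in A libraries. VPS18 (ENST00000220509) averaged 4.65 in G libraries and 5.13 in A libraries, so this order depends on the length used. The ranges of gene FPKM over the libraries overlapped for VIPAS39 and VPS41 and for VPS39 and VPS11, so the order of these neighbours is not set. Beyond its neighbours, the range of VPS39 also overlapped those of VIPAS39, VPS18 and VPS33B. In G replicate 3 VPS39 was at 4.47 FPKM and VPS18 at 4.49 FPKM. By gene FPKM, the place of VPS33B depended on the group, and it was the lowest of the 8 in every G library. In A libraries it lay above VPS33A in all 3 and its range overlapped that of VPS18. VPS16 exceeded VIPAS39 in every library. VPS41 and VPS39, VPS11 and VPS18, and VPS18 and VPS33A had ranges that nearly met without overlapping. VPS18 was nearly a single transcript, since its coding transcript ENST00000220509 made up at least 99.6% of its length-weighted value in every library.

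VPS41 and VPS33A were also mostly a single transcript, with 86.6% to 96.0% of VPS41 in G libraries and 96.6% to 98.8% in A libraries held by ENST00000310301, and 91.9% to 97.2% of VPS33A in G libraries and 74.8% to 96.3% in A libraries held by ENST00000267199. VPS16 and VPS39 were split over several annotated transcripts, and the shares of VPS39 and VPS11 moved from library to library within a group. Of the 76 transcripts of the members, 14 passed the filter on low values and 18 had no estimate in any library. For VPS39, the coding transcript ENST00000318006 was at 4.42, 4.25 and 5.92 FPKM in G libraries and at 2.99, 9.42 and 3.63 FPKM in A libraries. Its retained-intron transcript ENST00000562258 was at 9.49, 6.83 and 0.656 FPKM in G libraries and at 8.93, 1.38 and 8.17 FPKM in A libraries. The groups overlapped for both. The libraries with little of the retained-intron transcript, G replicate 3 and A replicate 2, were those with the most of the coding one.

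For VPS16, the retained-intron transcript ENST00000380443 was at 11.1, 16.4 and 16.3 FPKM in G libraries and at 15.6, 16.9 and 16.2 FPKM in A libraries. The coding transcript ENST00000380445 was at 7.4, 8.47 and 7.54 FPKM in G libraries and at 10.6, 7.78 and 7.16 FPKM in A libraries. The groups overlapped for both transcripts. VPS16 overlaps PTPRA on the same strand and PCED1A on the opposite strand, by 2549 and 488 bases of their spans, so reads there could be divided in more than 1 way. PTPRA was at 34.9 to 36.4 FPKM in G libraries and 32.8 to 37.1 FPKM in A libraries, and PCED1A at 20.1 to 23.1 FPKM in G libraries and 23.1 to 24.6 FPKM in A libraries. In VPS11, ENST00000621676 was at 4.93, 9.48 and 6.30 FPKM in G libraries and 9.92, 9.59 and 7.88 FPKM in A libraries, with overlapping groups. It held 50.0%, 93.7% and 63.4% of the length-weighted value in G libraries and 84.0% to 89.6% in A libraries, and ENST00000614944 held 38.3% in G replicate 1 and 17.5% in G replicate 3. In VPS41, ENST00000310301 was at 10.3, 10.3 and 9.93 FPKM in G libraries and 11, 10.1 and 10.2 FPKM in A libraries, also with overlapping groups.

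Beside the transcripts of VPS33B and VIPAS39 given above, 2 member transcripts that passed the filter had groups that did not overlap. VPS16 ENST00000466415 was at 0.613, 2.80 and 1.49 FPKM in G libraries, against 3.68, 3.22 and 2.85 FPKM in A libraries. That transcript lies wholly within the span that VPS16 shares with PTPRA on the same strand. VPS41 ENST00000482217 was at 1.40, 1.60 and 6.09 FPKM in G libraries, against 0.616, 0.393 and 0.365 FPKM in A libraries. That makes 2 member transcripts lower and 2 higher in G libraries without overlap, where 6.4% of the 29990 tested transcripts were lower and 9.59% were higher in that way, and nothing is read from this count. Within the G libraries, replicate 3 stood far above the others for VPS41 ENST00000482217, and replicate 1 was lowest for VPS16 ENST00000466415.

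**Figure D4:**
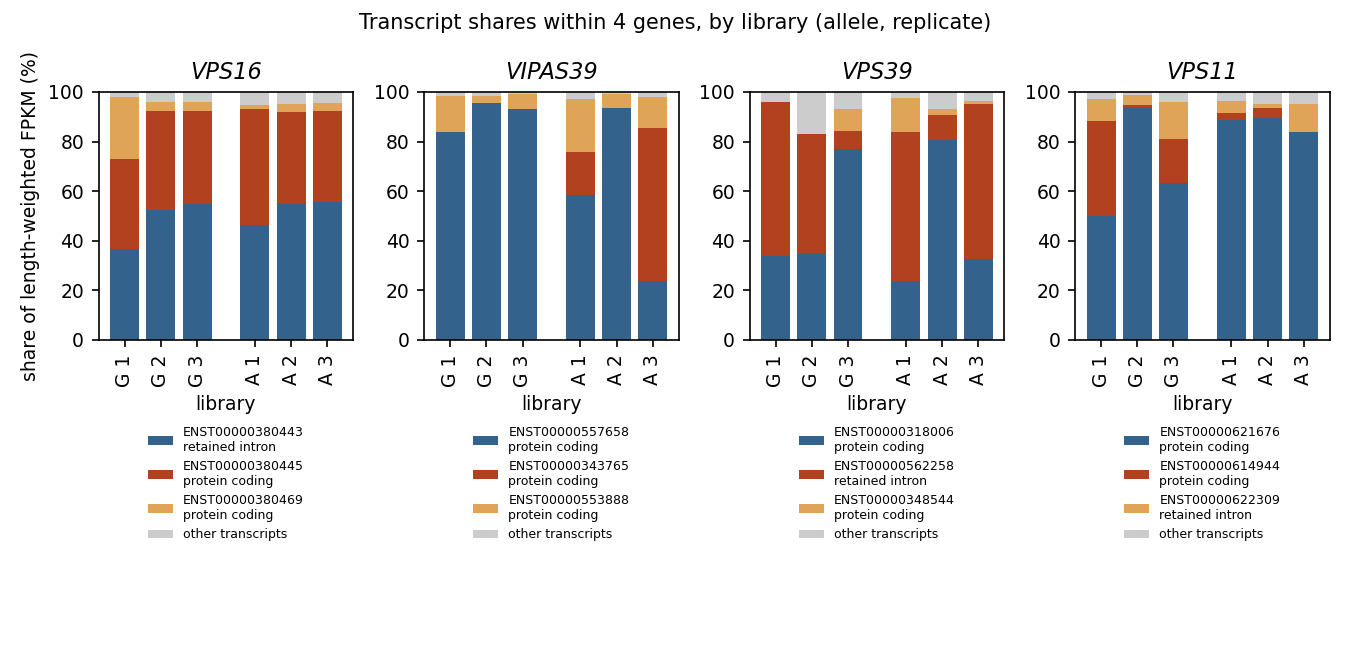
Share of each gene's length-weighted FPKM (percent, vertical axis) held by its transcripts in each library, for VPS16, VIPAS39, VPS39 and VPS11, with G libraries left of A libraries. The makeup of VIPAS39 in A replicate 3, where ENST00000343765 holds 61.9%, and of VPS39 in G replicate 3 and A replicate 2 differs from that of the other libraries.

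The other genes of the pathway were taken as 8 lists, with 57 genes in the tables and 55 above the filter. Limma's fit called 0 of the 55, and at an unadjusted p under 0.05 1 was higher and 2 were lower in G libraries, where 17.3% of all tested genes had such a p. Of the 55 log2 changes 30 were positive and 25 negative with a median of 0.02, and over all 12787 tested genes 7045 were positive and 5742 negative with a median of 0.02. The medians of the lists lay between -0.10 and 0.11.

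In the machinery nearest to HOPS, no list held a gene past the threshold. Among the SNAREs of late endosomes and autophagosomes, 6 of 8 changes were positive, and the smallest p was that of VAMP8, which works in autophagosome fusion, at 144 ± 5.41 FPKM in G libraries and 163 ± 3.76 FPKM in A libraries (SD, n = 3 each; log2 change -0.18, adjusted p = 0.188). STX17, the autophagosomal SNARE that HOPS binds, was at 2.26, 2.01 and 2.25 FPKM in G libraries and at 0.824, 0.645 and 3.80 FPKM in A libraries, and was chosen after its values were seen. Of the GTPases, exchange factors and adaptors that recruit HOPS, 3 of 13 changes were positive. The smallest p there was that of RMC1, a subunit of the RAB7 exchange factor, at 3.96 ± 0.296 FPKM in G libraries and 4.45 ± 0.0421 FPKM in A libraries (log2 change -0.14, adjusted p = 0.354). The groups did not overlap for VAMP8 or RMC1, which a choice by the smallest p favours. Over all tested genes, 9.57% were lower in G libraries in that way, so nothing is read from this.

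The CORVET-specific subunit TGFBRAP1 was at 5.17 ± 0.443 FPKM in G libraries and 5.00 ± 0.530 FPKM in A libraries (log2 change 0.04), and both CORVET-specific subunits had positive changes. RAB5A, of the early endosomal GTPases that recruit CORVET, was at 8.47 ± 1.16 FPKM in G libraries and 11.4 ± 3.58 FPKM in A libraries (log2 change -0.35), and 1 of 3 changes of that list was positive. The adjusted p was 0.841 for TGFBRAP1 and 0.462 for RAB5A in limma's fit. Among the other Sec1/Munc18 proteins, 5 of 6 changes were positive, with SCFD1, which acts between endoplasmic reticulum and Golgi, at 7.26 ± 0.137 FPKM in G libraries and 6.46 ± 0.677 FPKM in A libraries (adjusted p = 0.379). The groups overlapped for these 3 genes.

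The list of the RAB11 group, which are recycling proteins, also held PLOD3, and its genes are linked to VPS33B and VIPAS39. Of its 9 changes 3 were positive, and that of PLOD3 was -0.13. RAB11FIP1 was at 13.3 ± 0.791 FPKM in G libraries and 11.9 ± 0.778 FPKM in A libraries (log2 change 0.16, adjusted p = 0.328 in limma's fit). In the other tethers, 3 of 5 GARP and EARP genes and 7 of 9 exocyst genes had positive changes. VPS51, of GARP and EARP, was at 13.9 ± 0.984 FPKM in G libraries and 15.9 ± 0.635 FPKM in A libraries (log2 change -0.18, adjusted p = 0.268). EXOC8, of the exocyst, was at 6.87 ± 0.443 FPKM in G libraries and 6.05 ± 0.0487 FPKM in A libraries (log2 change 0.16, adjusted p = 0.283). The groups did not overlap for RAB11FIP1, VPS51 or EXOC8, and the differences of all 3 missed the threshold after adjustment. Each was named for the smallest p of its list, a choice that favours groups without overlap. Over all tested genes, 9.57% were lower and 15.4% were higher in G libraries without overlap, so nothing is read from this.

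**Figure D5:**
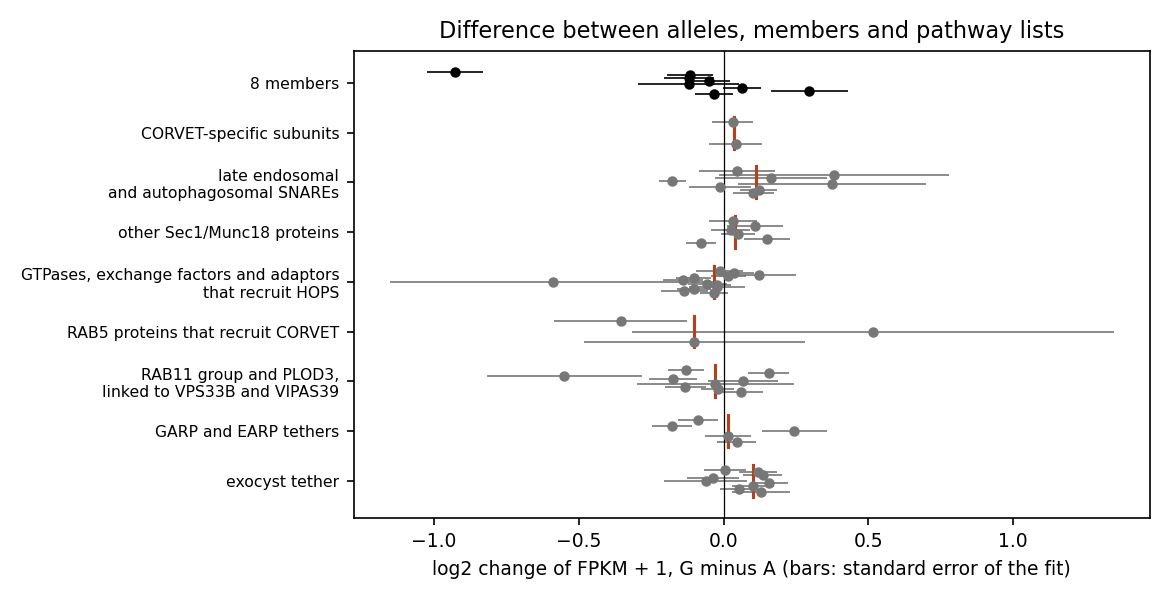
Log2 change, G minus A, of FPKM + 1 (horizontal axis) for each of the 8 members and each tested gene on the 8 pathway lists, as points with bars for the standard error of the fit, and with the median of each list as an upright line. VPS33B lies at -0.93, and the list medians lie between -0.10 and 0.11.

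The genes whose levels moved most like VPS33B across the 6 libraries were taken by the smallest root mean square difference between centred log2(FPKM + 1) values. They were MT-CO3, a mitochondrially encoded subunit of cytochrome c oxidase (0.133), the ribosomal protein pseudogene RPL41P1 (0.153) and AC018804 (0.158). MT-CO3 was at 2368, 2138 and 2430 FPKM in G libraries, against 3825, 3677 and 3697 FPKM in A libraries. RPL41P1 was at 198, 148 and 137 FPKM in G libraries, against 273, 303 and 266 FPKM in A libraries, and is uncertain because it shares sequence with other copies of its gene. AC018804 was at 1.73, 1.17 and 1.58 FPKM in G libraries, against 2.96, 2.73 and 3.34 FPKM in A libraries. In all 3 genes the groups did not overlap, which the likeness to VPS33B fixes. On the log2(FPKM + 1) scale the change of a low gene such as VPS33B comes out too small. The likeness was not computed on another scale.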

How the data were processed

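Libraries of poly(A) RNA with a dUTP-marked second strand were read as pairs, per the labels' protocols. Per the submitters' processing notes, reads went through cutadapt 1.9, HISAT2 2.0.4 and then StringTie 1.3.4d. A mouse build is also named there, but the identifiers are human, and 94.6% of the 206348 transcripts found in GENCODE release 29 had its GRCh38 position. The sources used here give no strand setting, no annotation release and no name for the authors' test. The deposited tables hold FPKM per library, with 0.0001 for no estimate, printed here as listed at 0. The authors' fold ratio, its log2 value, p-value and q-value stand beside them, per the file headers. The size of 1 read was not known, so for each library the step with the highest share of whole multiples was taken. Within 0.02, 33.3% to 36.4% of low values were whole multiples of that best step, so no count model was used.

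All genes that reached 1 FPKM in 3 or more of the 6 libraries were fitted as log2(FPKM + 1) with limma 3.58.1 and an intensity trend (R 4.3.3), and a gene was called at a Benjamini-Hochberg adjusted p under 0.05, two-sided. The fit was tested on simulated data. The level over a region is the sum of transcript FPKM, each times the share of the region its exons cover. For each member, the transcript FPKM weighted by length summed to a constant multiple of the gene FPKM, and that multiple differed by gene. Python 3.11.15 with pandas 2.3.3 handled the tables.

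The members and lists were chosen with earlier results of these data known. Named genes are the members, genes overlapping them, the gene with the smallest p on each list, the 3 most like VPS33B, FOXM1 and cell type markers. PRC1, which the readthrough joins, and STX17 were added after their values were seen. Alternatives changed the pseudocount, filter, scaling, variance model, library weights, replicate block, the treatment of AC068831 and the libraries used.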

Additional observations from a re-analysis of the deposited data

How the results depend on the processing

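Limma called 14 genes, 4 higher and 10 lower in G libraries. The number was 1 with no filter on low values, 6 with quantile normalization and 4 without a variance trend, and 2 to 14 with 1 library left out: 14 without A replicate 1, 4 without A replicate 2, 2 without A replicate 3, 12 without G replicate 1, 6 without G replicate 2 and 5 without G replicate 3. With equal summed FPKM per library, 7 were higher and 8 lower, and the median of the log2 changes over all genes stood at 0.11, against 0.02. None of the 55 pathway genes was called in any of the 19 alternatives run.

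The log2 change of VPS33B, -0.93, was -1.21 with a pseudocount of 0.1 and -1.25 with 0.01, both with the threshold missed, and -0.98 to -0.84 with 1 library left out. It was 0.072 when VPS33B was summed with AC068831 by length, and 0.057 when PRC1 was added too. Over the exons shared with AC068831 it was -0.27 (SE 0.0545, adjusted p = 0.161). By their construction, these 3 settings count the readthrough with VPS33B. The last 2 were chosen after seeing the data. VPS33B was negative in 17 of 19 alternatives and called in 2, with all 6 libraries required to reach 1 FPKM (adjusted p = 0.0411) and with library weights (0.0354). Over the 19, its adjusted p was 0.0354 to 0.705. AC068831 was positive in all 16 alternatives that gave it a value of its own (0.44 to 0.61) and called in 0 of them.

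The other 7 members were called in 0 of the 19. The sign was kept in all 19 for VPS33A, VIPAS39, VPS18 and VPS41. VPS11 was 0.04 and VPS16 0.07 with equal summed FPKM, VPS16 was 0.02 without A replicate 1, and VPS39 was 0.08 without G replicate 3.

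With a replicate block, 0 genes were called by limma, 2148 at an unadjusted p under 0.05, and VPS33B was -0.93 with an adjusted p of 0.261. Same-numbered libraries deviated together with weak positive correlations of 0.073, 0.015 and 0.040 for numbers 1, 2 and 3. G replicate 2 had 0.0154 with A replicate 2 and 0.0155 with A replicate 3. Values this weak cannot tell whether the numbers mark shared batches. Depth per library is unknown, which sets no floor for transcripts listed at 0. The division of reads among VPS33B, AC068831 and PRC1 cannot be checked in FPKM.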
